A study of Drosophila melanogaster with 8 samples.

Results

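The m6A writer and reader genes of Drosophila melanogaster are followed here through an RNA immunoprecipitation (IP) experiment. They are 6 genes, chosen by their FlyBase gene IDs out of 17559 genes in the deposited tables. They are fl(2)d (FBgn0000662), vir (FBgn0003977) and nito (FBgn0027548), which encode accessory subunits of the writer complex, Mettl3 (FBgn0039139) and Mettl14 (FBgn0032016), its methyltransferase subunits, and Ythdc1 (FBgn0027616), a nuclear reader. SL2 cells, a cultured male line that lacks the female regulator Sex-lethal (SXL), were transfected with a protein carrying a FLAG and triple HA tag. The tagged protein was either SXL, the related Sister-of-Sex-lethal protein (SSX) or, as a control, green fluorescent protein (GFP), and it was collected with an antibody against FLAG. RNA in the precipitates was depleted of ribosomal RNA and sequenced, giving 2 SXL IP, 3 SSX IP and 2 GFP IP libraries, with 1 input sample that is in no comparison here. The comparisons ask how much RNA of each gene was recovered with SXL or SSX over the GFP background, and whether the recovery differed between SXL and SSX. The input sample is labelled as a control, and there is no input for each bait. The amount of an RNA in the cells and its binding to a bait therefore cannot be told apart. All baits were expressed from transfected constructs in cells of 1 line, and no label gives replicates as separate cultures, so that p-values may measure technical spread only.

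N6-methyladenosine, written m6A, is a methyl mark that the writer complex places on adenosines of nascent RNA. Mettl3 carries the catalytic site, Mettl14 is its partner in the core, and the accessory proteins Fl(2)d, Virilizer and Spenito are needed for the complex to work in cells. Ythdc1 binds the mark in the nucleus and passes it on to splicing. In female flies this pathway helps SXL to skip the male exon of its own pre-mRNA, and fl(2)d, vir and nito were found as genes that female Sxl splicing needs. The values below are of the RNAs of these genes in the precipitates, not of their proteins or of the mark.

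Over the 956 genes with counts per library, the libraries held 3266209 and 3604413 reads (SXL IP), 3383720 to 4429899 reads (SSX IP) and 20859 and 27467 reads (GFP IP). The authors' size factors, by which counts are divided to give normalized counts, were 3.33 and 3.59 for the SXL IP, 1.87 to 2.15 for the SSX IP and 0.0886 and 0.120 for the GFP IP. A single GFP read thus weighs far more than a read of the other libraries, and GFP reads set the precision of each comparison with GFP. The transcripts of the baits stood high in their own precipitates, with Sxl at 33893 ± 929 normalized counts in the SXL IP (SD, n = 2) against 468 ± 7.44 in the GFP IP (SD, n = 2), and ssx at 20862 ± 6285 in the SSX IP (SD, n = 3) against 345 ± 54.1 in the GFP IP (SD, n = 2). Of 12 hemocyte markers, the cell type SL2 cells resemble, 1 could be matched to a table row. That marker, the GATA factor srp, had 1811 and 1819.6 normalized counts in the SXL IP, 4726 to 6162 in the SSX IP and 905 to 1004 in the GFP IP. The other hemocyte markers, and all 6 markers of muscle and fat body, were not matched here. The germline gene osk, the 1 matched of 5 germline markers, had 50.7 and 66.8 normalized counts in the SXL IP, 468 to 575 in the SSX IP and 0 to 24.9 in the GFP IP. The neuronal gene elav, the 1 matched of 4 neuron markers, had 653 and 706 in the SXL IP, 1735 to 2868 in the SSX IP and 83.0 to 181 in the GFP IP. All 3 markers could be matched only because they are in the authors' list of genes enriched with SSX, so that their high SSX values follow from that selection. The part that cells of other types may have in any value was not tested. In such bulk libraries fewer cells with an RNA and less RNA per cell cannot be told apart.

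All 6 m6A genes were tested in each of the authors' comparisons, at an adjusted p of 0.05 over all genes. For SXL over GFP, 2 of 6 passed in the authors' deposited table, fl(2)d and Ythdc1, both higher with SXL, while 29.4% of 7170 tested genes passed in either direction and 16.4% were higher. For SSX over GFP, 2 of 6 passed in the authors' deposited table, fl(2)d and nito, both higher with SSX, while 45.4% of 9034 tested genes passed and 26.2% were higher. Between SXL and SSX, 3 of 6 passed in the authors' deposited table, Ythdc1 higher with SXL and fl(2)d and nito lower, while 37.4% of 9500 tested genes passed, 11.5% higher and 25.9% lower. The members' counts lie near these shares, and nothing about the 6 genes as a group is read from them. The median log2 fold change of the 6 genes was 0.41 with SXL, 0.26 with SSX and -0.10 for SXL over SSX. The medians over all tested genes of the authors' deposited tables were 0.09, 0.44 and -0.23. The first 2 comparisons share the GFP libraries, so their values for 1 gene are not independent.

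Other call rules on the authors' deposited tables gave other member counts, listed for SXL over GFP, for SSX over GFP and for SXL over SSX in that order. At an adjusted p of 0.01, 1, 1 and 1 of 6 members passed, beside 21.0%, 34.9% and 27.1% of tested genes. With an absolute log2 fold change above 1 as well as an adjusted p under 0.05, 1, 1 and 0 passed, beside 25.8%, 42.4% and 24.5%. The gene left against GFP was fl(2)d under both rules. With all 12297 genes that have a p-value adjusted together, 1, 2 and 3 passed, beside 15.4%, 31.3% and 27.3%. Among the 4115 genes whose mean normalized count was 50 or more, which include fl(2)d, nito and Ythdc1, 2, 2 and 3 of these 3 members passed, beside 46.9%, 70.8% and 58.3%. Centred on the median of tested genes, 2, 2 and 1 of 6 members passed, beside 29.5%, 46.3% and 38%. Centred on the median of tested genes with a mean of at least 50, a rule added after the data were seen, 2, 3 and 1 passed, beside 30.0%, 46.7% and 38.6%. Centring changed which members passed: vir took the place of Ythdc1 with SXL and of nito with SSX, where Ythdc1 also passed as lower under the second centring. Between the proteins Ythdc1 alone passed under either centring.

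**Figure D1:**
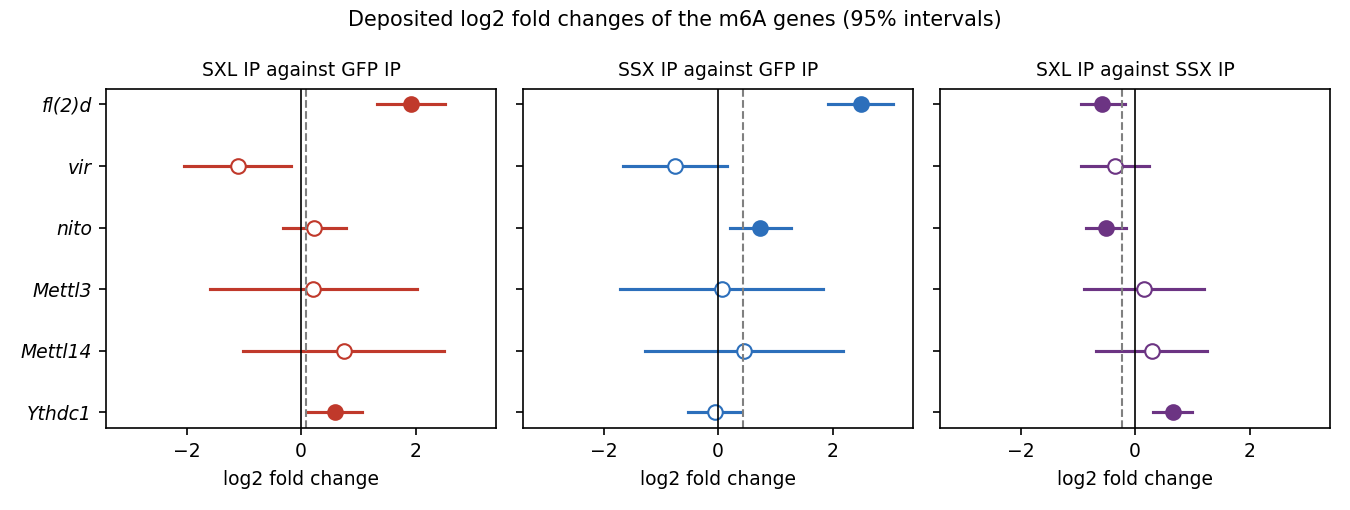
Log2 fold changes of the 6 m6A genes in the authors' deposited tables (x axis), with 95% intervals from the deposited standard errors as lines. Filled points passed an adjusted p of 0.05, open points did not, the solid line marks 0 and the dashed line the median of all tested genes. The fl(2)d points against GFP are the highest of the 6, at 1.92 with SXL and 2.49 with SSX. The lines of Mettl3 and Mettl14 are the longest in each panel, and with SXL they reach past the fl(2)d point, to 2.02 and 2.50.

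The RNA of fl(2)d, which encodes the fly counterpart of the WTAP scaffold protein, was recovered well above background with both proteins, 3.80-fold with SXL and 5.63-fold with SSX. The gene lies on the minus strand of chromosome 2R (13819624 to 13824553, BDGP6) and is the 1 m6A gene with counts per library. In the SXL IP it had 757 and 793 normalized counts. In the SSX IP it had 983, 1202 and 1268 normalized counts. In the GFP IP it had 259.6 and 149 normalized counts. Since fl(2)d has counts only through the authors' list for SSX, its difference between SSX and GFP follows from that selection. SXL is compared with the same GFP libraries, and low GFP values, which the selection favours, raise that ratio too. Lower values with SXL than with SSX were also usual among the 956 genes with counts. Their median log2 for SXL over SSX was -1.23, and 9.6% had a higher value than fl(2)d.

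The group means of fl(2)d were 775 ± 25.3 for the SXL libraries (SD, n = 2), 1151 ± 149 for the SSX libraries (SD, n = 3) and 205 ± 77.9 for the GFP libraries (SD, n = 2). For SXL over GFP, the authors' deposited table gave fl(2)d a log2 fold change of 1.92 (SE 0.30, 95% interval 1.33 to 2.52, adjusted p = 6.9e-09). For SSX over GFP, the authors' deposited table gave 2.49 (SE 0.29, 95% interval 1.92 to 3.06, adjusted p = 2.6e-16). These values stood above 94.2% and 89.1% of the genes tested with SXL and with SSX. Centred on the median of all tested genes, fl(2)d had 1.84 with SXL and 2.06 with SSX, and centred on the median of those with a mean of at least 50 it had 1.57 and 1.83. All these centred values passed, and the size of the SSX enrichment depends on the centring. An exact permutation test of the library values cannot go below a two-sided p of 0.333 for 2 against 2 libraries and 0.2 for 3 against 2, and gave these values for fl(2)d.

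Those fl(2)d means rest on 5373 reads over the SXL libraries, 6815 over the SSX libraries and 41 over the GFP libraries. The GFP libraries had 23 and 18 reads, with exact 95% Poisson intervals of 165 to 389 and 88.6 to 236 normalized counts. The intervals overlap, and the split of the 41 reads (56.1% in the first library against 42.4% by size factor) did not pass an exact binomial test (p = 0.0830, two-sided). The ratio of pooled fl(2)d reads was 3.96 for SXL over GFP (exact 95% counting interval 2.91 to 5.52) and 5.83 for SSX over GFP (4.29 to 8.13). These intervals cover counting error only, and sequencing reads without molecular identifiers are not independent molecules.

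**Figure D2:**
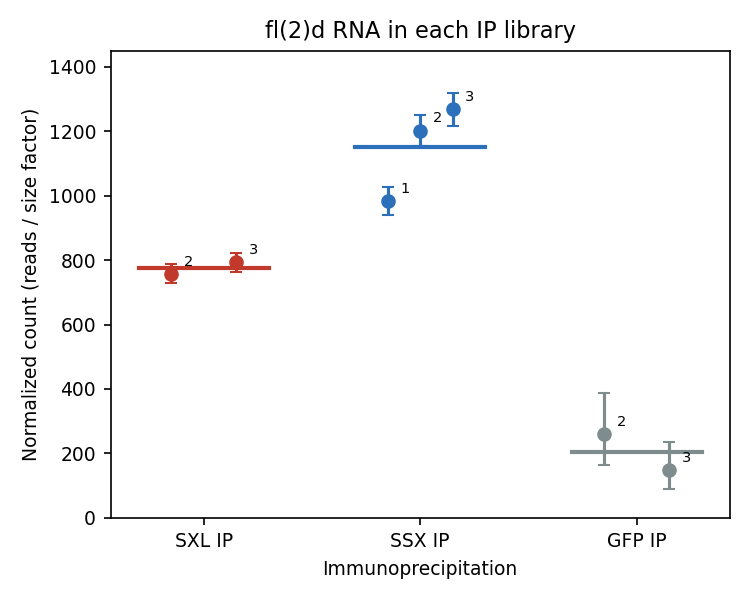
Normalized counts of fl(2)d (y axis, reads divided by the authors' size factor) in each library of the SXL, SSX and GFP IP, numbered as in the deposited columns. Bars are exact 95% Poisson intervals of the reads and horizontal lines are group means. The SSX libraries run from 983 to 1268, the SXL libraries stand at 757 and 793 and the GFP libraries at 259.6 and 149.

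The fl(2)d transcript is one of 947 genes that the authors listed as enriched with SSX, by a log2 value over 2 together with an adjusted p below 0.001. Of these 947, 613 had a higher log2 fold change than fl(2)d, and the median of the list was 2.79. The gene is not among the 199 listed for SXL, where its 1.92 fell just short of 2 and 24 unlisted genes with an adjusted p under 0.001 stood between. Since the genes with counts were picked by that rule, the counts of fl(2)d repeat its enrichment and are not independent of it.

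Between the proteins, fl(2)d fell with SXL relative to SSX by a log2 of 0.57 in the authors' deposited table (value -0.57, 95% interval -0.95 to -0.18, adjusted p = 0.014). The median over all tested genes was also below 0 in that table, at -0.23. Centred on that median, fl(2)d had -0.34 and no longer passed (adjusted p = 0.168). A lower value than that of fl(2)d was found for 39.0% of all tested genes in that comparison. The ratio of pooled fl(2)d reads was 0.678 for SXL over SSX (exact 95% counting interval 0.655 to 0.703). Without SXL library 2, SXL library 3 or SSX library 2, an edgeR quasi-likelihood fit of the listed genes gave -0.54, -0.60 and -0.54 with adjusted p = 0.17, 0.12 and 0.072, against -0.57 with all 7 libraries (adjusted p = 0.024). The direction stayed below 0 in each of those fits and the call was lost.

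For genes without counts per library, group levels were solved from 2 kinds of value in the authors' deposited tables, the mean normalized count over the 7 libraries and the log2 fold changes. For fl(2)d this gave 776, 1150.3 and 204 in the SXL, SSX and GFP IP, next to the measured means of 775, 1151 and 205. Over 678 listed genes with a mean of at least 200, the ratio of solved to measured level had a median of 1.00 for SXL, 0.996 for SSX and 1.03 for GFP. Over 42 listed genes with a mean under 50, of which 5 had GFP reads, the GFP ratio had a median of 1.86. Solved GFP levels of such thinly covered listed genes were thus too high and their fold changes too small. The listed genes were selected for strong enrichment, and genes that differ little between groups were not checked. Solved levels have no error of their own, and normalized counts are not scaled for gene length, so they are set side by side only within a gene.

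**Figure D3:**
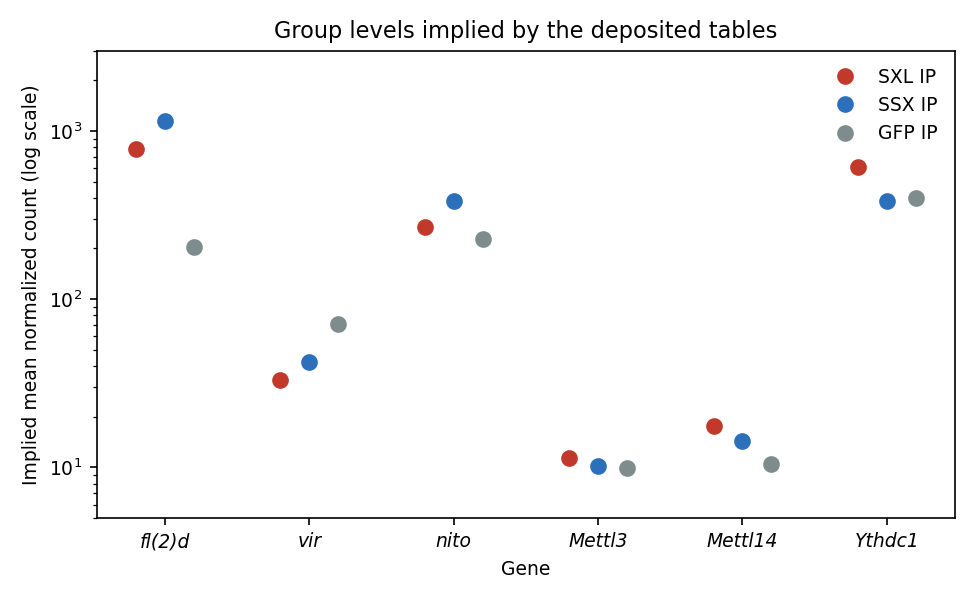
Mean normalized count of each m6A gene in the SXL, SSX and GFP IP (y axis, log scale), as solved from the authors' deposited mean and log2 fold changes. The GFP point is lowest for fl(2)d (204), nito (229), Mettl3 (9.83) and Mettl14 (10.5) and highest for vir (71.1), and for Ythdc1 the SSX point (385) lies beside the GFP point (402). The GFP points of Mettl3 and Mettl14 rest on about 2.1 and 2.2 reads.

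The RNA of vir, which encodes the large Virilizer subunit, was the 1 member with values below background in both comparisons with GFP, and neither passed the test. It lies on 2R (23360192 to 23366355, RefSeq, Release 6). Its solved levels were 33.1 normalized counts in the SXL IP, 42.2 in the SSX IP and 71.1 in the GFP IP. The GFP level corresponds to about 15 reads over both GFP libraries. For vir with SXL, the authors' deposited table gave a log2 fold change of -1.10 (SE 0.48, 95% interval -2.04 to -0.17, adjusted p = 0.067). For vir with SSX, the value in the authors' deposited table was -0.75 (SE 0.46, 95% interval -1.66 to 0.15, adjusted p = 0.17).

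With SXL, the value of vir stood above 16.0% of the tested genes, and with SSX above 28.8%. Centred on the median of all tested genes, vir had a log2 of -1.19 over GFP in both comparisons, and both passed (SXL adjusted p = 0.0442, SSX adjusted p = 0.0241). The direction of vir was the same under either centring, and its calls depend on it. SXL over SSX was -0.35 in the authors' deposited table (95% interval -0.95 to 0.25, adjusted p = 0.39). The levels of vir with SXL and SSX, neighbours in its order of levels, did not differ beyond their error.

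The RNA of nito, which encodes the RNA-binding subunit Spenito of the Spen family, was recovered 1.67-fold over background with SSX and 1.18-fold with SXL. It lies on 2R (7962463 to 7969805, RefSeq, Release 6). Its solved levels were 269 normalized counts in the SXL IP, 381 in the SSX IP and 229 in the GFP IP, the last from about 48 reads. With SSX, nito rose by a log2 of 0.74 in the authors' deposited table (SE 0.27, 95% interval 0.21 to 1.27, adjusted p = 0.017). With SXL it had 0.23 in the authors' deposited table (SE 0.28, 95% interval -0.32 to 0.79, adjusted p = 0.57). The SSX level was the highest of the 3, and the SXL and GFP levels did not differ beyond their error.

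Relative to the median of all genes tested with SSX, the call of nito was lost. Centred on that median the SSX value of nito was 0.30 (adjusted p = 0.378), and 55.8% of tested genes had a lower value. SXL over SSX was -0.50 for nito in the authors' deposited table (95% interval -0.85 to -0.15, adjusted p = 0.018) and -0.27 after centring (adjusted p = 0.233). The values of nito and fl(2)d between the proteins were thus alike in size and direction, and both calls were lost on centring.

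The RNAs of the methyltransferase subunits Mettl3 and Mettl14 were covered so thinly that no difference of moderate size against GFP could be detected. Mettl3 lies on 3R (24032157 to 24034257) and Mettl14 on 2L (8308427 to 8309961), both from RefSeq, Release 6. Mettl3 had solved levels of 11.4 normalized counts in the SXL IP, 10.2 in the SSX IP and 9.83 in the GFP IP. Mettl14 had 17.6, 14.4 and 10.5 in the SXL, SSX and GFP IP. Over both GFP libraries these levels amount to about 2.1 reads of Mettl3 and 2.2 reads of Mettl14.

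With SXL, the authors' deposited table gave log2 fold changes of 0.21 for Mettl3 (95% interval -1.59 to 2.02, adjusted p = 0.90) and 0.74 for Mettl14 (95% interval -1.01 to 2.50, adjusted p = 0.57). With SSX, the authors' deposited table gave 0.06 for Mettl3 (95% interval -1.72 to 1.84, adjusted p = 0.96) and 0.45 for Mettl14 (95% interval -1.27 to 2.18, adjusted p = 0.69). With standard errors of this size, a large deposited fold change was needed to reach the smallest test statistic that passed. With SXL it was 4.75-fold for Mettl3 and 4.53-fold for Mettl14. With SSX the sizes were 4.20-fold and 4.02-fold. For fl(2)d, nito and Ythdc1 a 1.44-fold to 1.67-fold difference against GFP would have been enough. An enrichment like that of fl(2)d, 3.80-fold with SXL, lies inside the intervals of both Mettl3 (0.331 to 4.05) and Mettl14 (0.497 to 5.64). With SSX the 5.63-fold of fl(2)d lies above the upper bounds of both, 3.58 for Mettl3 and 4.53 for Mettl14, with the limit that deposited fold changes of thinly covered genes were too small among the listed genes.

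Between the proteins the same 2 genes were measured more tightly, with standard errors of 0.53 for Mettl3 and 0.49 for Mettl14 on the log2 scale, against 0.92 and 0.89 for SXL over GFP. The SXL over SSX value was 0.15 for Mettl3 (95% interval -0.89 to 1.20, adjusted p = 0.85) and 0.29 for Mettl14 (95% interval -0.68 to 1.26, adjusted p = 0.68) in the authors' deposited table. These intervals run from about 0.539-fold to 2.30-fold for Mettl3 and from 0.625-fold to 2.39-fold for Mettl14. A difference of 2.38-fold for Mettl3 and 2.24-fold for Mettl14 would have been enough to pass between the proteins. The order of the 3 levels was not resolved for either gene.

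The RNA of Ythdc1, the nuclear reader, showed the pattern opposite to fl(2)d and nito between the proteins, with 1.58-fold more recovered with SXL than with SSX. It lies on 3L (3370451 to 3374170, RefSeq, Release 6). Its solved levels were 607 normalized counts in the SXL IP, 385 in the SSX IP and 402 in the GFP IP, the last from about 84 reads, the most of the 6 genes. Over SSX, Ythdc1 rose with SXL by a log2 of 0.66 in the authors' deposited table (SE 0.17, 95% interval 0.32 to 0.99, adjusted p = 7.0e-04). A lower value than that of Ythdc1 was found for 80.0% of tested genes. Centred on the median of all tested genes the Ythdc1 difference also passed (log2 0.89, adjusted p = 3.4e-06).

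Against GFP, Ythdc1 rose with SXL by a log2 of 0.59 in the authors' deposited table (SE 0.24, 95% interval 0.12 to 1.07, adjusted p = 0.048), at the edge of the threshold. That call was lost when every gene with a p-value was adjusted together (adjusted p = 0.0811) and after centring (0.51, adjusted p = 0.103). With SSX, Ythdc1 had -0.06 in the authors' deposited table (SE 0.23, 95% interval -0.52 to 0.39, adjusted p = 0.83). In that table the SSX and GFP levels of Ythdc1 did not differ beyond their error, and the interval allows at most a 1.31-fold enrichment with SSX. Centring lowered the SSX value of Ythdc1 to -0.50 on the median of all tested genes (adjusted p = 0.0622) and to -0.73 on the median of those with a mean of at least 50, where it passed as lower than GFP (adjusted p = 0.0048).

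**Figure D4:**
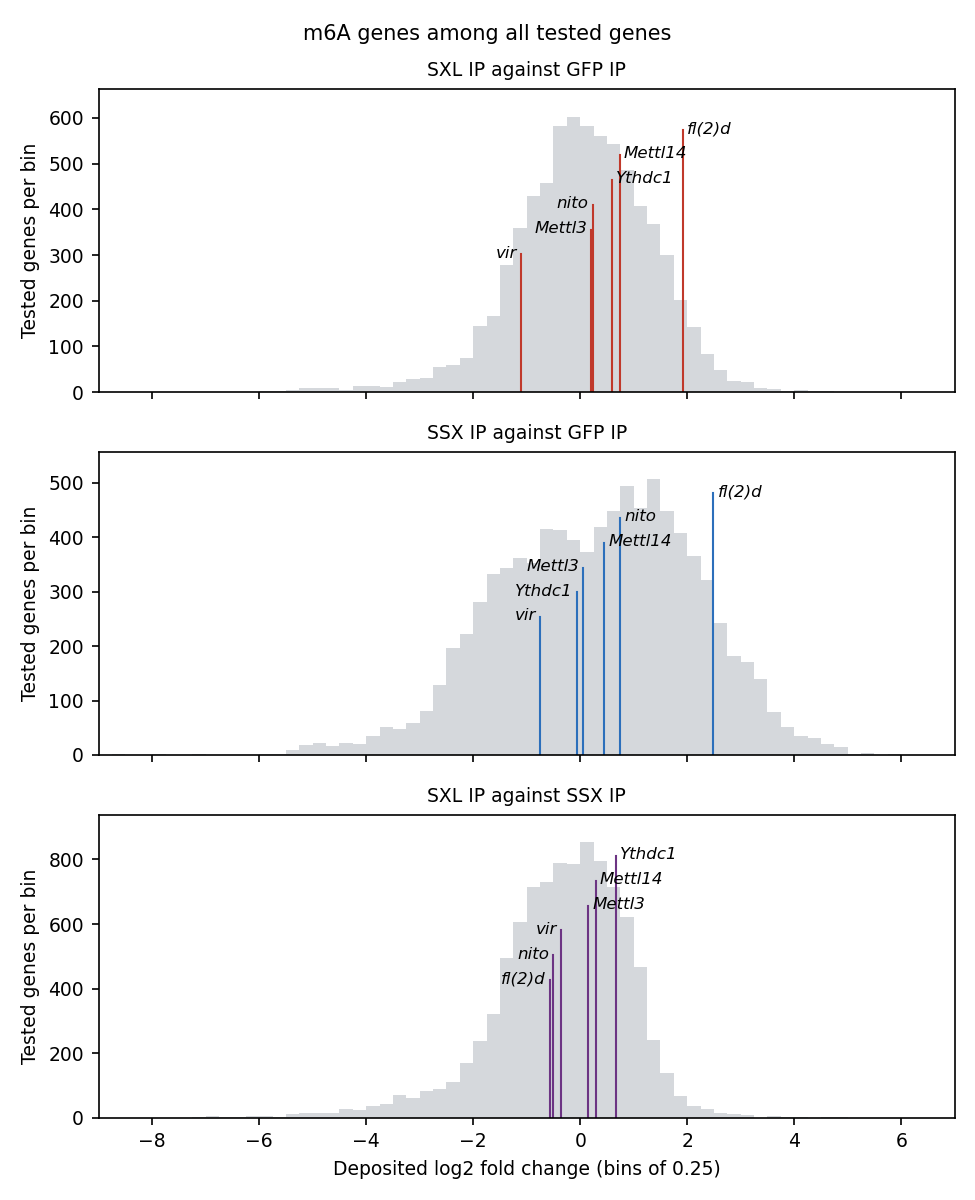
Number of tested genes per bin of deposited log2 fold change (grey bars, bins of 0.25) in each comparison, with the value of each m6A gene as a coloured line whose height has no meaning. With SXL or SSX against GFP, fl(2)d lies in the upper flank (1.92 and 2.49) and vir in the lower part (-1.10 and -0.75). For SXL against SSX, Ythdc1 (0.66) is the rightmost of the 6 and fl(2)d (-0.57) the leftmost.

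A wider list of 7 m6A-related genes held 2 that could be matched, spen and Fmr1. Both carry names only because they are in the authors' list for SSX, so that their SSX values are high by selection and no count of rising genes is given for the list. The gene spen encodes the large paralogue of Spenito. It had 5182 and 5239 normalized counts in the SXL IP, 16496 to 21760.3 in the SSX IP and 2765 to 2889 in the GFP IP. For spen, the authors' deposited table gave log2 fold changes of 0.88 (SXL over GFP), 2.80 (SSX over GFP) and -1.92 (SXL over SSX, adjusted p = 1.6e-24). The last value lies on the same side of 0 as that of nito (-0.50), but selection for high SSX values favours values below 0 there. Over the 956 listed genes the median log2 for SXL over SSX was -1.23. The difference between spen and nito was not tested.

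The gene Fmr1, which encodes an RNA-binding translational regulator reported to read m6A, had 1590.0 and 1819 normalized counts in the SXL IP, 2507 to 3529.7 in the SSX IP and 440.1 to 565 in the GFP IP. For Fmr1, the authors' deposited table gave 1.73 for SXL over GFP (adjusted p = 8.7e-09) and 2.47 for SSX over GFP (adjusted p = 2.4e-20), next to 1.92 and 2.49 for fl(2)d. Hakai and Flacc, further subunits of the writer, the cytoplasmic reader Ythdf, and Mettl16 and Mettl5 were not analysed here, since no table used here ties their names to the IDs.

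A list of 7 genes that act with SXL in splicing or translation held 3 that could be matched. Unr and how were matched only through the authors' list for SSX, so that their SSX values are high by selection and no count of rising genes is given. For Unr, a translational corepressor of SXL, the authors' deposited table gave log2 fold changes of 1.63 (SXL over GFP) and 2.02 (SSX over GFP). For how, a KH-domain splicing regulator, the authors' deposited table gave 1.55 and 2.15. The gene pps, whose protein is a partner of the snRNP protein Snf, was matched through a RefSeq synonym and not through the authors' lists. It did not pass against GFP, and its values in the authors' deposited table were -0.64 for SXL over GFP (adjusted p = 0.12) and -0.06 for SSX over GFP (adjusted p = 0.88). For SXL over SSX the authors' deposited table gave -0.58 for pps (adjusted p = 0.038), -0.60 for how (adjusted p = 0.026) and -0.39 for Unr (adjusted p = 0.26). Selection for high SSX values favours values below 0 for how and Unr, and the median over the 956 listed genes was -1.23.

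Among the 956 genes with counts, the pattern of fl(2)d over the 7 libraries was nearest to that of Kat60, which encodes the microtubule-severing ATPase katanin, and of Tab2, a TAK1-binding protein of immune signalling. Likeness was the Euclidean distance between log2(normalized count + 1) values centred on each gene's mean, which was 0.38 for Kat60 and 0.40 for Tab2, against a median of 1.34 over the listed genes. For Kat60, the authors' deposited tables gave 2.07 (SXL over GFP), 2.65 (SSX over GFP) and -0.59 (SXL over SSX). For Tab2, the authors' deposited tables gave 1.65, 2.27 and -0.62. Kat60 and Tab2 were picked for the smallest distances, so their place under the median and their similar fold changes follow from that choice. The distances rest on the same 7 libraries and on 2 GFP libraries with few reads.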

How the data were processed

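RNA was sequenced in paired ends of 51 nt with a stranded low-input kit, per the labels' protocols. The tools named in the submitters' processing notes are featureCounts, TopHat2, Trimmomatic, DESeq2 and DESeq, with the build BDGP6; versions, roles and strand use in counting are not given in the sources used here, so overlapping genes are uncertain. Per the file headers, each of the authors' 3 full tables gives a gene's mean normalized signal, log2 fold change, standard error, test score, and raw and adjusted p-value. For 956 listed genes the authors deposited read counts per library. Size factors were solved by least squares from these counts and the mean normalized signal; 14 other columns of per-library values were left unused.

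The calls are those of the authors' tables. Counts were at hand for listed genes only, so edgeR 4.0.16 (quasi-likelihood, R 4.3.3, authors' size factors), tested on simulated data, served as a check, and DESeq2 1.42.0 as an alternative. Intervals are 95% Wald, Poisson or Clopper-Pearson intervals (Python 3.11.15, scipy 1.17.1). SXL and GFP columns carry other numbers than the sample titles, so columns were matched to groups only. Replicates may be technical. Members, lists and thresholds were chosen with earlier results of these data known. Of the 6 IDs, the deposited files name fl(2)d; the other pairings of ID and name came with the choice of members. Positions of those 5 are from RefSeq (Release 6), matched by symbol; 787 of 799 listed genes found there had the deposited coordinates. The genes named are all members, every matched gene of the fixed lists and the 2 genes nearest to fl(2)d.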

Additional observations from a re-analysis of the deposited data

Results flagged for a closer look

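The effect against GFP differed between SXL and SSX for 3 of the 6 m6A genes, tested as SXL over SSX in the authors' deposited table at an adjusted p of 0.05, while 37.4% of all tested genes passed there. Ythdc1 was higher with SXL (log2 0.66, adjusted p = 7.0e-04). The genes fl(2)d (-0.57, adjusted p = 0.014) and nito (-0.50, adjusted p = 0.018) were lower with SXL, and both calls were lost after centring on the median of tested genes.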

How the results depend on the processing

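The number of m6A genes called in the authors' deposited tables was 2 with SXL, 2 with SSX and 3 for SXL over SSX, beside 29.4%, 45.4% and 37.4% of all tested genes. It was 1, 1 and 1 at an adjusted p of 0.01 (21.0%, 34.9% and 27.1% of tested genes), and 1, 1 and 0 at 0.05 with an absolute log2 fold change above 1 as well (25.8%, 42.4% and 24.5%); fl(2)d was the 1 gene left against GFP and Ythdc1 between the proteins at 0.01. Adjusting over every gene with a p-value left 1 with SXL (15.4%). Centred on the median of tested genes, 1 passed for SXL over SSX (38% of tested genes), and likewise 1 (38.6%) when centred on the median of tested genes whose mean normalized count was 50 or more (0.35, 0.66 and -0.32), where Ythdc1 was also lower with SSX than with GFP (-0.73, adjusted p = 0.0048). Members whose sign turned had small values: Mettl3 had -0.38 with SSX after the first centring and -0.14 with SXL and -0.61 with SSX after the second, where nito had -0.12 with SXL and Mettl14 -0.21 with SSX.

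For fl(2)d, edgeR on the listed genes gave log2 values of 1.96 with SXL, 2.53 with SSX and -0.57 for SXL over SSX. Leaving out each library in turn gave 1.58 to 2.37, 2.15 to 2.94 and -0.67 to -0.49. Where a group was left with 1 library it was assumed to vary like the others. Counts of fl(2)d are at hand only because it is in the authors' list for SSX. No refit of these counts can therefore test its enrichment over GFP, and calls against GFP in them add no support. Scaling over the listed genes alone, which were selected for enrichment and are centred by it, gave 0.41 (TMM) and 0.31 (median of ratios) with SXL, -0.28 and -0.29 with SSX, and 0.69 and 0.60 for SXL over SSX; by its construction it cannot test enrichment. DESeq2, pseudocounts of 1 and 10 and filterByExpr, which removed no gene, changed no call or direction. With the column number as a replicate block the values were 1.97, 2.64 and -0.67, with no call changed; column numbers are not shown to pair libraries (correlation of deviations 0.12, -0.03 and 0.06 over 956 genes). GFP reads limit what could be detected, most of all for Mettl3 and Mettl14.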
